A study of Sus scrofa domesticus with 4 samples.

Results

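The solute carrier genes are the pig genes whose symbol begins with SLC and a digit, the nomenclature for membrane proteins that move sugars, amino acids, ions, metals, lipids, vitamins and metabolites. Earlier results of these data were known when the members were chosen. Membership went by name: a probe was a member when the RefSeq accession printed on the array belonged to such a gene. This gave 80 genes with 162 probes, out of 3029 named genes and 43603 probes in all, and 35 of the genes had 1 probe while SLC25A3 had 10. SLC9A3R1 and SLC9A3R2 carry the prefix but encode PDZ scaffold proteins that anchor transporters, and they are kept apart below.

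The samples were explants of myometrium, the smooth muscle wall of the uterus, from 4 crossbred gilts (Large White x Polish Landrace), aged 7 to 8 months, on days 15 to 16 of gestation. After 2 h in medium alone, treated slices received adiponectin (10 µg/ml) for 24 h, and control slices were kept as long without it. Each of 4 Agilent 2-colour arrays held 1 treated and 1 control RNA. Arrays 1 and 3 carried the treated RNA in Cy5, and arrays 2 and 4 had the dyes swapped, as the dye entry of each sample states. The protocol text mentions the Cy5 orientation alone, and the signs of the deposited series table follow the dye entries. Which gilt gave the RNA of which array is not labelled, so the p-values below reflect array-to-array spread, and some of that may be technical.

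Solute carriers are grouped into numbered families by sequence, and most families have a known kind of cargo. Facilitative carriers let a substrate run down its gradient, while coupled carriers use the gradient of sodium, protons or another solute to move it uphill. In the uterus of early pregnancy such carriers feed the muscle, keep its ion gradients and supply nutrients toward the lumen, and adiponectin is best known for raising glucose uptake and fatty acid oxidation in muscle and liver.

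In the control channel 46.1% to 56.5% of spots were well above background, depending on the array, and in the treated channel at most 63.1%. All 6 smooth muscle markers tested, ACTA2, CNN1, DES, MYL9, MYLK and SMTN, were well above background in both channels on all 4 arrays. The tissue was not pure muscle: 9 macrophage and monocyte markers, 7 markers of endometrial epithelium and 5 of endothelium were also tested. Fewer cells of a type and less RNA per cell cannot be told apart in such tissue.

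In untreated explants, 50 of the 80 genes (62.5%) had a probe well above background on all 4 arrays, against 63.8% of all named genes. For 18 genes (22.5%) no probe was above background on any array, against 20.8% of named genes. Detection differed between classes. Metal carriers were seen most often, with 12 of 14 genes above background on all 4 arrays, and inorganic ion carriers least often among the larger classes, with 4 of 12. The genes without control signal on any array included many with well-known roles in absorptive epithelia. Among them were the liver and islet glucose carrier SLC2A2, the peptide carriers SLC15A1 and SLC15A2, the bile acid carrier SLC10A2, the chloride exchanger SLC26A3, the phosphate carrier SLC34A2 and the kidney organic anion carrier SLC22A8. A probe that is not well above background gives only a bound on the level of its gene.

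**Figure D1:**
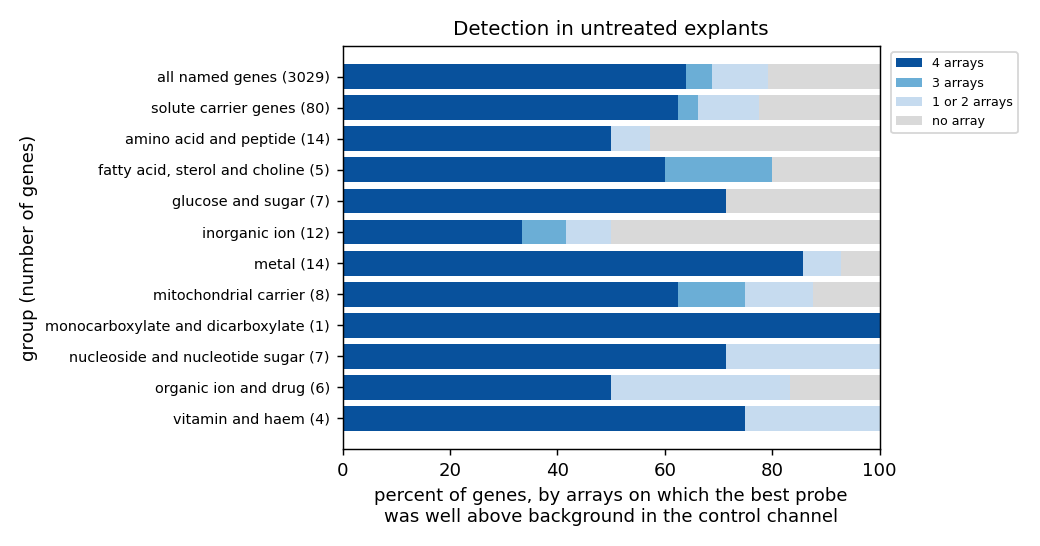
Share of genes (horizontal axis, percent) by the number of arrays on which their best probe was well above background in the control channel, for all named genes and for each transporter class (vertical axis, number of genes in parentheses). Metal carriers stand at 85.7% on all 4 arrays and inorganic ion carriers at 33.3%.

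The comparison asked whether adiponectin changed the expression of these genes. A gene was tested when it had a probe with a value on every array whose treated or control signal was well above background on 3 or more arrays, and 54 of the 80 genes met this. SLC1A1 and SLC23A2 passed only through the treated channel, being above background on 1 array in the control channel. SLC30A3, a zinc carrier, was bright on all arrays but its spot on array 2 was marked as an outlier, so it was not tested. Its log2 ratios of treated over control were -0.02, 0.02 and -0.28 on arrays 1, 3 and 4.

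No solute carrier gene passed the test. With limma, 0 of the 54 genes had an adjusted p under 0.05, the smallest being 0.856, and across the array 0% of the 22129 tested probes passed in either direction. At an unadjusted p under 0.05 there were 0 higher genes, where 3.09% of the 2134 tested named genes were higher, and 1 lower gene, where 2.44% were lower (over all probes, 3.79% and 1.92%). The lower gene was SLC5A1. The fitted log2 changes of treated over control ran from -0.44 (SLC7A2) to 0.30 (SLC25A24); their quartiles were -0.19 and 0.03, against -0.15 and 0.11 for all named genes. The 95% intervals of 51 of the 54 genes lay between -1 and 1, a doubling or halving of signal, and the exceptions were SLC1A1, SLC7A2 and SLC41A1. The half-width of the interval had a median of 0.37 over these genes. In simulated data of this design the adjusted test recovered 0% of log2 changes of 0.5 and 4.8% of changes of 1, so changes of this size would go uncalled.

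Values below 0 were more common than values above it. The log2 change was below 0 for 37 of the 54 genes (68.5%), against 54.4% of all named genes, and the median was -0.07 against -0.02. The median over the 54 genes was 0.08, -0.18, 0.03 and -0.15 on arrays 1 to 4, above 0 where treated RNA was in Cy5 and below 0 where it was in Cy3, so the signs of single arrays also hold a dye offset. A ratio above 0 on all 4 arrays was found for 1 gene, SLC10A7 (1.85%, against 5.53% of named genes), and a ratio below 0 on all 4 arrays for 5 genes, SLC25A3, SLC26A6, SLC23A2, SLC30A7 and SLC38A6 (9.26%, against 7.45%). Of these 5 genes, SLC23A2 was above background on 1 array in the control channel. For 30 genes the arrays were split with 2 above 0 and 2 below.

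**Figure D2:**
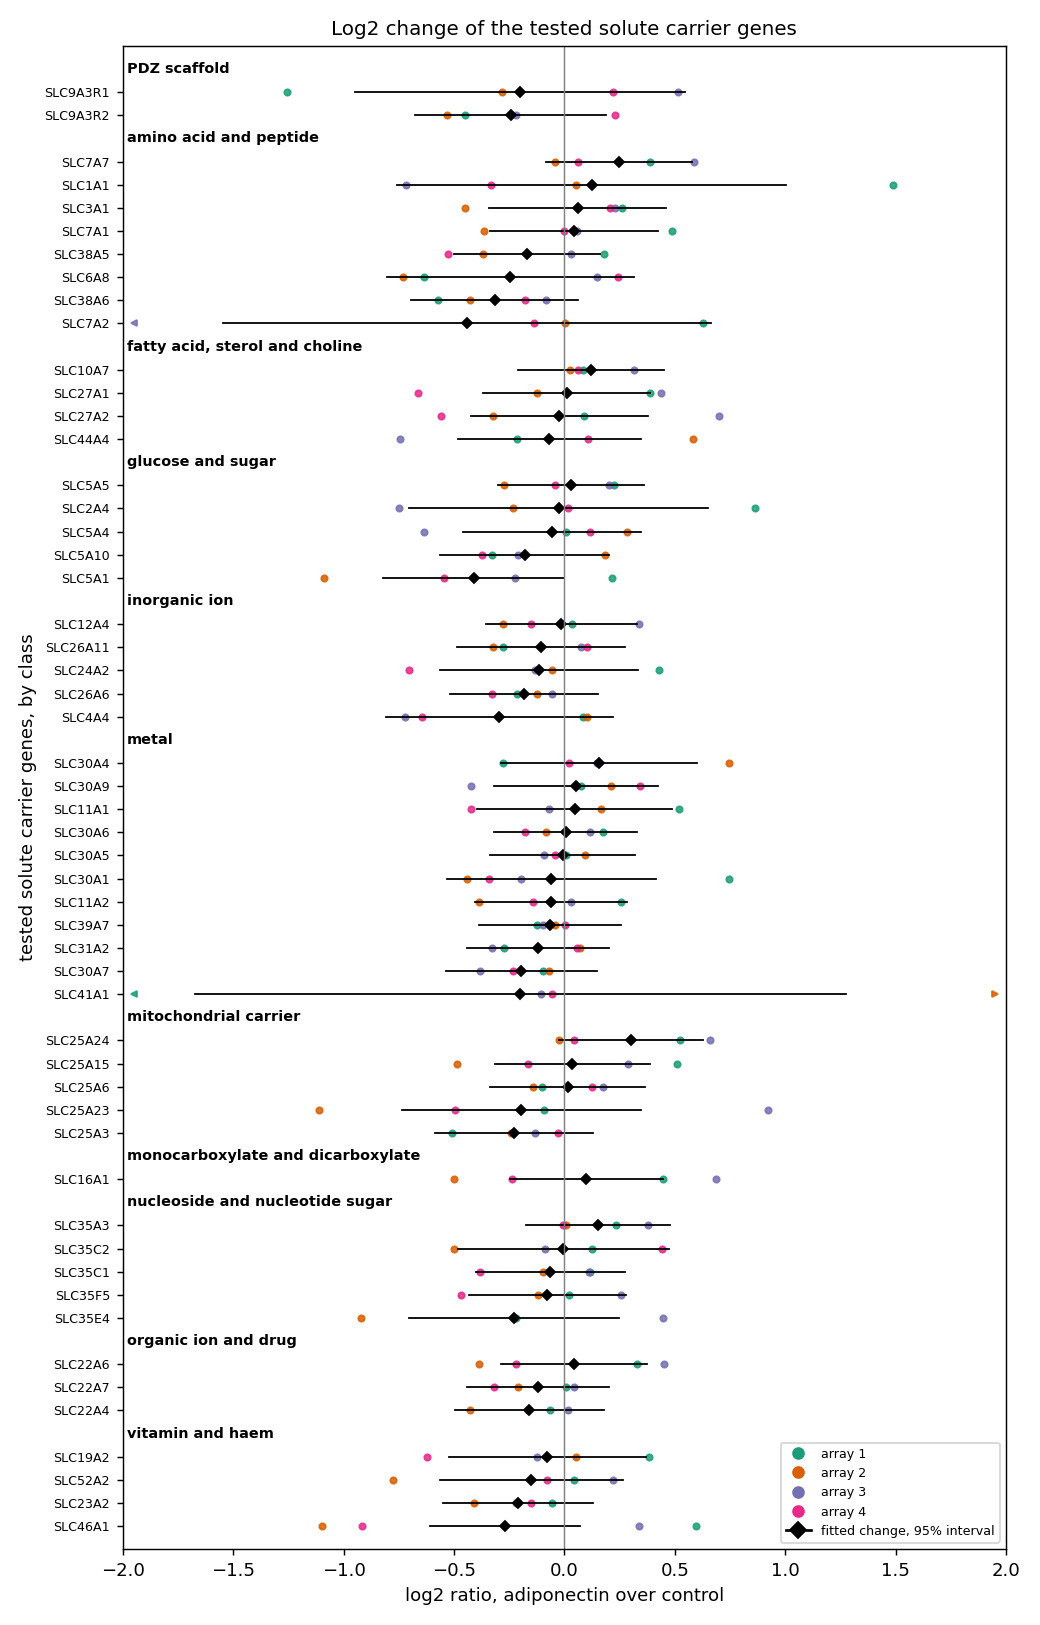
Log2 ratio of adiponectin over control (horizontal axis) for the tested genes reported by name (vertical axis, by class). Coloured points are the 4 arrays, triangles mark array values beyond the axis, and black diamonds with bars are the fitted changes with 95% intervals. All bars but that of SLC5A1, which ends just below 0, cross 0.

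For glucose and sugar carriers, of which 5 of 7 could be tested, the median log2 change was -0.06, with 1 above 0. The 1 above 0 was SLC5A5, which carries iodide and is counted here by family number, and the other 4 were below 0. SLC5A1, the sodium-coupled glucose carrier, read 0.22, -1.09, -0.23 and -0.55 on arrays 1 to 4. Its ratio was thus below 0 on 3 arrays and above 0 on array 1, and the fitted change was -0.41 ± 0.17 (SE, n = 4 arrays), a 1.33-fold lower signal (limma unadjusted p = 0.0498, adjusted p = 0.856). Control signals of that probe were 58.1, 85.5, 101 and 91.3 intensity units and treated signals 67.5, 40.2, 86.9 and 62.5, treated below control within 3 of the 4 arrays. A dimmer probe of SLC5A1 stood at -0.22, and with normexp and loess the brighter one stood at -0.18. Normexp was run with an offset of 50 units, which by itself draws the ratios of dim probes toward 0.

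SLC2A4, the insulin-responsive glucose carrier of muscle and fat, showed no common direction. It read 0.86, -0.23, -0.75 and 0.02 on the 4 arrays, with a fitted change of -0.03 ± 0.27 (SE, n = 4 arrays; limma adjusted p = 0.990) and an interval from -0.70 to 0.65. The interval leaves room for a change of either sign, and its dimmer tested probe ran the other way on arrays 1 to 3, at -0.42, 0.07 and 0.43. Omitting array 1 gave -0.43 and omitting array 3 gave 0.38, so the estimate rests on which of these arrays is used. The sodium-coupled relatives SLC5A10, which carries mannose and fructose, and SLC5A4 stood at -0.18 and -0.06. SLC5A5 belongs to the same family by sequence but carries iodide, and stood at 0.03.

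Amino acid and peptide carriers had a median of -0.06 over 8 tested genes of 14, with 4 above 0. SLC38A6, a member of the glutamine carrier family whose cargo is not well defined, was below 0 on every array, at -0.57, -0.43, -0.08 and -0.18. The fitted change was -0.31 ± 0.15 (SE, n = 4 arrays; limma adjusted p = 0.856), and its 4 tested probes lay between -0.41 and -0.28. The 2 dimmer probes were above 0 on array 3, at 0.69 and 0.58. SLC38A5, a glutamine and histidine carrier, stood at -0.17 and SLC6A8, the creatine carrier, at -0.24.

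SLC7A7, the light chain of an exchanger of cationic for neutral amino acids, had the largest positive change of the class. Its values were 0.39, -0.04, 0.59 and 0.06, with a fitted change of 0.25 ± 0.13 (SE, n = 4 arrays; limma adjusted p = 0.856). All 4 of its probes were highest on array 3, where they read 0.59, 0.69, 1.18 and 2.56. The 2.56 came from a dim probe whose control signal there was 8.94 units. The 2 dimmer probes were below 0 on array 1, at -0.25 and -0.24. The 9 macrophage and monocyte markers tested were all above 0 in the fit, at 0.01 to 1.20, and their median was 0.50, -0.18, 2.10 and 0.63 on arrays 1 to 4. Their summed signal ran from 2288 to 5987 units over the control channels and from 2419 to 10040 over the treated channels, and each marker was well above background on all 4 arrays in both. The smooth muscle markers were highest on array 3 too, with medians of -0.58, -0.12, 0.77 and -0.27 on arrays 1 to 4. SLC7A7 is also expressed by macrophages, and the part of these cells in its value was not tested.

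The remaining amino acid carriers lay near 0 or varied widely. SLC7A1, the cationic amino acid carrier of most cells, stood at 0.05 and SLC3A1, the heavy chain of the cystine carrier, at 0.06. SLC7A2, a cationic amino acid carrier of macrophages, liver and muscle, had the largest fitted change of all 54 genes, -0.44 ± 0.45 (SE, n = 4 arrays), from values of 0.63, 0.00, -2.26 and -0.14. Array 3 set this value: its control signal there was 566 and its treated signal 118, and without array 3 the change was 0.28. The macrophage and monocyte marker median was 0.50, -0.18, 2.10 and 0.63 on arrays 1 to 4. SLC7A2 thus had the opposite sign on arrays 3 and 4 and the same sign on array 1. SLC1A1, a glutamate carrier, read 1.49, 0.05, -0.72 and -0.33.

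Hypoxia and glycolysis genes had a like order of array values. Their median over 8 tested genes was 0.76, -0.06, -0.93 and -0.13 on arrays 1 to 4. It was high on array 1 and low on array 3, like SLC7A2 and the brighter probe of SLC2A4. The dimmer tested probe of SLC2A4 ran the other way, at -0.42 on array 1 and 0.43 on array 3. Over the 4 arrays the list's fitted median was -0.07, with 1 of 8 genes above 0. Its part in the values of these carriers was not tested. The array values of SLC7A2, SLC41A1, SLC44A4, SLC11A1, SLC9A3R1, SLC25A23, SLC30A3, SLC30A5, SLC1A1 and the listed gene BSG are given outside the rule for named genes, and were chosen after their values were seen.

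Carriers of fatty acids, sterols and choline had a median of -0.01 over 4 tested genes of 5, with 2 above 0. SLC27A1, a fatty acid transport protein of muscle and fat, read 0.39, -0.12, 0.44 and -0.66, with a fitted change of 0.01 ± 0.15 (SE, n = 4 arrays; limma adjusted p = 0.993) and an interval from -0.37 to 0.39. Its ratio was high where treated RNA was in Cy5 and low where it was in Cy3. SLC27A2, a fatty acid transport protein of liver and kidney, stood at -0.02. SLC10A7, of the bile acid carrier family, was the 1 gene above 0 on every array, at 0.08, 0.02, 0.31 and 0.06, with a fitted change of 0.12 ± 0.13 (SE, n = 4 arrays; limma adjusted p = 0.911).

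SLC44A4, a choline and thiamine pyrophosphate carrier of epithelia, varied more between arrays than most members, though its fitted change was near 0. The probe with the highest signal read -0.22, 0.58, -0.74 and 0.11, and its other tested probes read 1.48 and 1.31 on array 2 and -1.20 and -1.16 on array 3. The fitted change was -0.07 ± 0.17 for the first of these (SE, n = 4 arrays), and 0.07 and 0.04 for the others. The 7 endometrial epithelium markers had medians of -0.09, 1.24, -0.70 and 0.69 on the same arrays, with 4 of 7 above 0 in the fit. Their summed signal ran from 3179 to 7756 units over control channels and from 3836 to 9503 over treated channels, and CLDN4 and MUC4 were above background on 3 arrays in the control channel. The part of epithelium in the values of SLC44A4 was not tested.

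**Figure D3:**
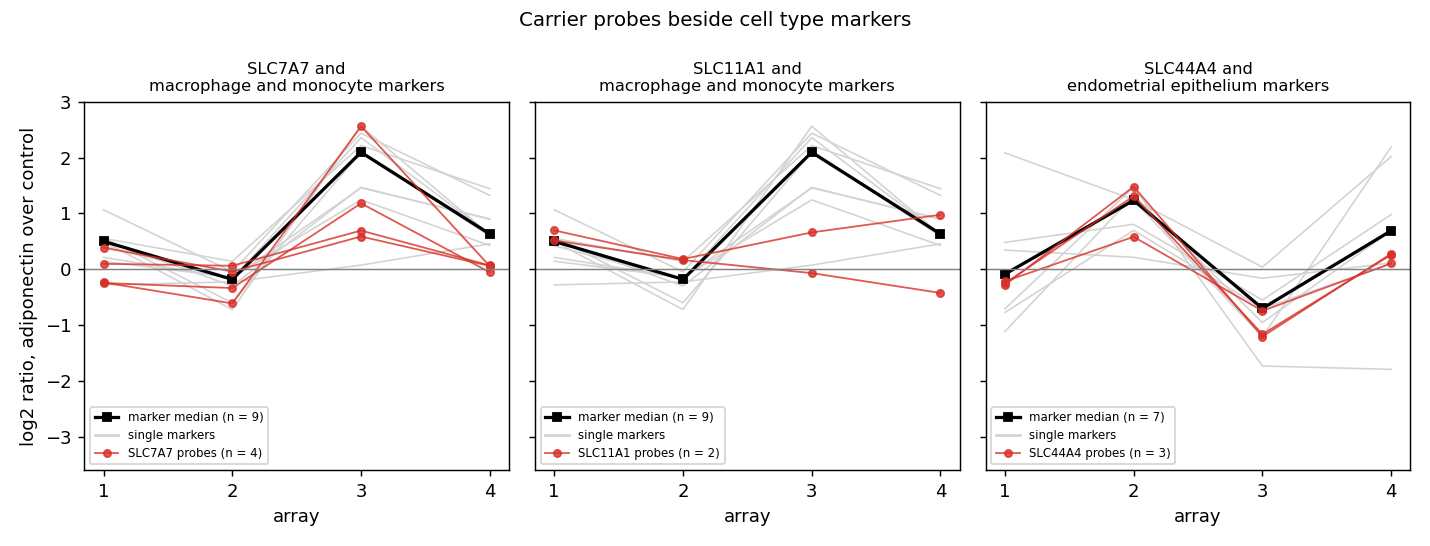
Log2 ratio of adiponectin over control (vertical axis) on arrays 1 to 4 (horizontal axis) for every tested probe of SLC7A7, SLC11A1 and SLC44A4 (red) beside the single markers (grey) and median (black) of macrophages and monocytes or of endometrial epithelium; lines join values of 1 probe or marker. All SLC7A7 probes peak on array 3 as the macrophage median does at 2.10, and all SLC44A4 probes are highest on array 2 and lowest on array 3. The highest SLC7A7 value has a control signal of 8.94 units.

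Carriers of inorganic ions had a median of -0.12 over 5 tested genes of 12, all below 0. SLC4A4, the electrogenic sodium bicarbonate cotransporter, read 0.08, 0.10, -0.72 and -0.64, with a fitted change of -0.29 ± 0.21 (SE, n = 4 arrays; limma adjusted p = 0.868), and -0.09 with normexp and loess. Arrays 1 and 2 were thus just above 0 and arrays 3 and 4 well below. SLC26A6, an anion exchanger, was below 0 on every array and stood at -0.18 with a matching -0.19 from its other probe. SLC24A2, a sodium and potassium-dependent calcium exchanger, stood at -0.12, SLC26A11, a chloride and sulphate carrier, at -0.11 and SLC12A4, the potassium chloride cotransporter of cell volume control, at -0.01.

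Metal carriers had a median of -0.06 over 11 tested genes of 14, with 4 above 0. SLC30A5, a zinc carrier of the secretory pathway, read 0.01, 0.10, -0.09 and -0.04, and its fitted change had an interval from -0.34 to 0.32. SLC30A7, which loads zinc into the Golgi, was below 0 on every array, at -0.10, -0.07, -0.38 and -0.23, with a fitted change of -0.20 ± 0.14 (SE, n = 4 arrays; limma adjusted p = 0.868). SLC30A4, a zinc carrier known for milk zinc, read -0.28, 0.74, 0.15 and 0.02, with a fitted change of 0.16 ± 0.18 (SE, n = 4 arrays; limma adjusted p = 0.912), and -0.023 without array 2. The brightest probes of the other zinc carriers were near 0, SLC30A9 at 0.05, SLC30A6 at 0.01, SLC30A1 of the plasma membrane at -0.06 and SLC39A7 of the endoplasmic reticulum at -0.07. The 4 tested probes of SLC39A7 lay between -0.21 and 0.06. SLC11A2, the main iron importer, stood at -0.06 and SLC31A2, a copper carrier of endosomes, at -0.12.

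SLC11A1, the metal pump of the phagosome of macrophages, gave unlike values from its 2 probes. The brighter probe read 0.52, 0.16, -0.07 and -0.42, with a fitted change of 0.05 ± 0.18 (SE, n = 4 arrays). The dimmer probe read 0.70, 0.18, 0.66 and 0.98, above 0 on every array, with a fitted change of 0.63 ± 0.17 (SE, n = 4 arrays; limma unadjusted p = 0.0123, adjusted p = 0.856). The probes parted on arrays 3 and 4, where the macrophage markers were also above 0. The median of these markers was above 0 on array 1 too, at 0.50, and there the probes read 0.52 and 0.70. SLC41A1, a magnesium carrier, read -3.11, 2.47, -0.11 and -0.06 on the 4 arrays, and its interval reached from -1.67 to 1.27. On array 1 the control signal of 709, in Cy3, exceeded the treated signal of 82.1, and on array 2 the treated signal of 1190, also in Cy3, exceeded the control signal of 214. Its signal thus followed the dye on these arrays, while on arrays 3 and 4 all signals lay between 62.5 and 69.9.

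Mitochondrial carriers had a median of -0.04 over 6 tested genes of 8, with 3 above 0. SLC25A3 brings phosphate into the matrix for ATP synthesis, and SLC25A6 exchanges ADP for ATP across the inner membrane. The brightest SLC25A3 probe was below 0 on every array, at -0.51, -0.24, -0.13 and -0.03. Control signals of that probe were 43836, 53211, 42003 and 44312 units and treated signals 30789, 44964, 38352 and 43477. The fitted change was -0.23 ± 0.14 (SE, n = 4 arrays), a 1.17-fold lower signal (limma adjusted p = 0.867). All 9 tested probes of SLC25A3 were below 0 in the fit, between -0.37 and -0.23. On each array they varied less among themselves, with a mean SD of 0.12, than their mean did between arrays, with an SD of 0.23. These probes share their RNA and count as 1 gene. SLC25A6 stood at 0.01 ± 0.14 (SE, n = 4 arrays), and its 6 probes lay between -0.23 and 0.01.

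**Figure D4:**
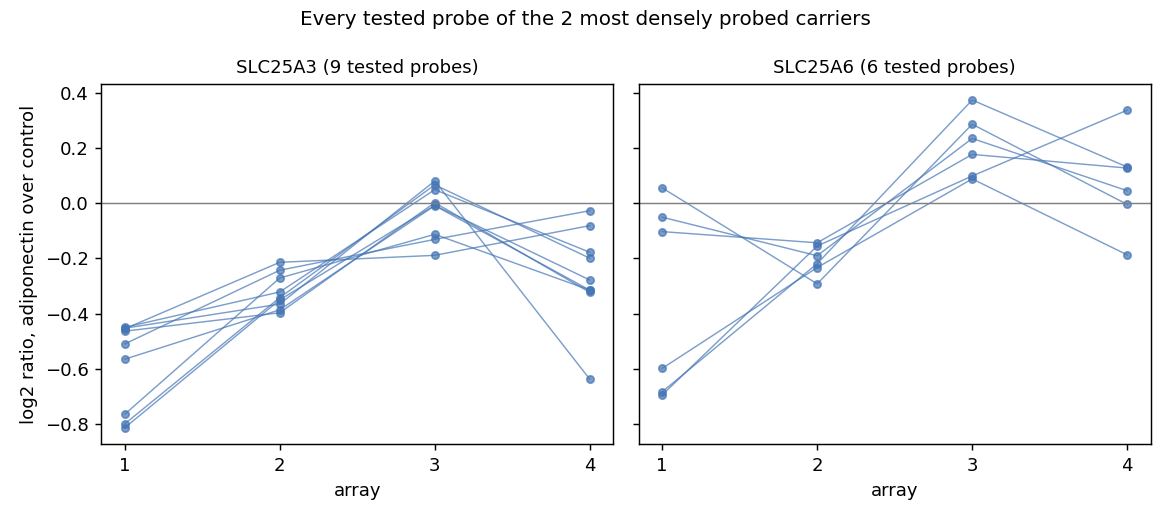
Log2 ratio of adiponectin over control (vertical axis) on arrays 1 to 4 (horizontal axis) for the 9 tested probes of SLC25A3 and the 6 of SLC25A6; each line is 1 probe. The SLC25A3 probes keep close to each other and are in most cases lowest on array 1 and nearest to 0 on array 3, while those of SLC25A6 lie on either side of 0.

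The calcium-regulated carriers of ATP and phosphate did not share a direction. SLC25A24 had the largest positive change of the 54 genes, with values of 0.52, -0.03, 0.66 and 0.04 and a fitted change of 0.30 ± 0.13 (SE, n = 4 arrays; limma adjusted p = 0.856), but 0.10 with normexp and loess. The ratio was high on arrays 1 and 3, where treated RNA was in Cy5, and near 0 on arrays 2 and 4. SLC25A23, its close relative, read -0.09, -1.11, 0.92 and -0.50, a fitted change of -0.19 ± 0.22 (SE, n = 4 arrays), and its other probe gave -0.20. SLC25A25, the third of this kind, was above background on 1 array in the treated channel and on no array in the control channel. SLC25A15, the ornithine carrier of the urea cycle, stood at 0.04.

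The single lactate and pyruvate carrier among the named genes, SLC16A1, read 0.45, -0.50, 0.69 and -0.24, following the dye orientation. Its fitted change was 0.10 ± 0.14 (SE, n = 4 arrays; limma adjusted p = 0.929), and its 3 probes lay between -0.02 and 0.28. BSG, the chaperone that brings SLC16A1 to the cell surface, read -0.81, -0.66, 0.01 and -0.31, with a fitted change of -0.44 ± 0.18 (SE, n = 4 arrays; limma adjusted p = 0.856).

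Carriers of nucleosides and nucleotide sugars had a median of -0.06 over 5 tested genes of 7, with 1 above 0. SLC35A3, which brings UDP-N-acetylglucosamine into the Golgi, read 0.23, 0.01, 0.38 and -0.01, with a fitted change of 0.15 ± 0.13 (SE, n = 4 arrays; limma adjusted p = 0.890). SLC35E4 read -0.22, -0.92, 0.45 and -0.23, with a fitted change of -0.23 ± 0.19 (SE, n = 4 arrays; limma adjusted p = 0.890). SLC35F5 stood at -0.08 and SLC35C1, the GDP-fucose carrier of the Golgi, at -0.06, while SLC35C2 lay within 0.01 of 0.

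Organic ion carriers had a median of -0.12 over 3 tested genes of 6, with 1 above 0. SLC22A4, the ergothioneine carrier, read -0.06, -0.43, 0.02 and -0.16, with a fitted change of -0.16 ± 0.14 (SE, n = 4 arrays; limma adjusted p = 0.890). SLC22A7 stood at -0.12 and SLC22A6, the organic anion carrier of the kidney tubule, at 0.04.

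Vitamin carriers had a median of -0.18 over 4 tested genes of 4, all below 0, but -0.071 with normexp and loess. The class median was 0.21, -0.59, 0.05 and -0.39 on arrays 1 to 4, above 0 on the arrays with treated RNA in Cy5. SLC46A1, the proton-coupled folate carrier, showed this most, at 0.60, -1.10, 0.34 and -0.92, and the fit gave -0.27 ± 0.14 (SE, n = 4 arrays; limma adjusted p = 0.856), or -0.06 with normexp and loess. SLC23A2, an ascorbate carrier, read -0.06, -0.41, -0.22 and -0.15, with a fitted change of -0.21 ± 0.14 (SE, n = 4 arrays; limma adjusted p = 0.867) and -0.08 with normexp and loess. Its probe was dim, with control signals of 28.9, 84.4, 37.0 and 10.1 units, above background on 1 array. SLC52A2, a riboflavin carrier, stood at -0.15 and SLC19A2, a thiamine carrier, at -0.08.

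Both PDZ scaffold genes were below 0. SLC9A3R2 read -0.45, -0.53, -0.22 and 0.23, with a fitted change of -0.24 ± 0.17 (SE, n = 4 arrays; limma adjusted p = 0.870). SLC9A3R1, which links ion exchangers to the cytoskeleton, read -1.26, -0.28, 0.52 and 0.22, with a fitted change of -0.20 ± 0.30 (SE, n = 4 arrays) that turned to 0.24 without array 1.

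Between classes, the medians of the 9 classes with at least 3 tested genes lay between -0.18 and -0.01, all at or below that of all named genes except fatty acid, sterol and choline carriers. The class medians of single arrays spread over a wider range, from -0.59 to 0.38. Leaving out 1 array turned the sign of 6 of the 9 class medians. Amino acid carriers reached 0.012 without array 2 and 0.11 without array 3, and metal carriers 0.017 and 0.019 without arrays 3 and 4. Glucose carriers reached 0.034 without array 3, which is the value of SLC5A5, the iodide carrier counted in this class. Fatty acid, sterol and choline carriers reached 0.076, 0.030 and 0.081 without arrays 1, 3 and 4, mitochondrial carriers 0.020 and 0.021 without arrays 1 and 2, and nucleotide carriers 0.0084 without array 4. The order of the classes is thus not fixed by these arrays, and differences between them were not tested.

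**Figure D5:**
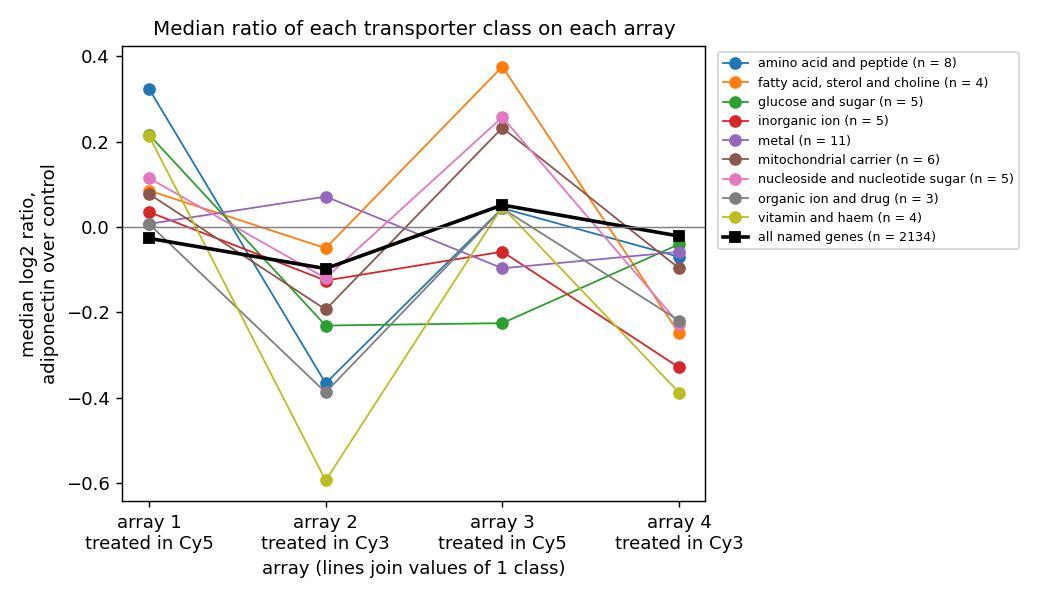
Median log2 ratio of adiponectin over control (vertical axis) on arrays 1 to 4 (horizontal axis) for each class with at least 3 tested genes and for all named genes (black); lines join the values of 1 class. Vitamin and haem carriers reach -0.59 on array 2 and fatty acid, sterol and choline carriers 0.38 on array 3, while all named genes stay between -0.10 and 0.05.

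Probes of the same gene mostly moved together between arrays. Of 22 genes with several tested probes, 17 had a larger SD between arrays than between probes, with medians of 0.26 and 0.20. The 5 exceptions were SLC11A1, SLC2A4, SLC35A3, SLC39A7 and SLC5A10. The fitted changes of the probes differed in sign for 9 genes, in each of which at least 1 probe lay within 0.1 of 0.

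Other genes of membrane and mitochondrial transport also gave no call. Of a list of 50 pumps, channels, exchangers and their partners, 28 were on the array under these names and 19 were tested, and 0 had an adjusted p under 0.05. Their median was -0.06 with 6 above 0, close to that of the solute carriers. Of the 19, 2 were above 0 on every array, where 5.53% of named genes were. They were CPT1A, which passes long-chain fatty acids to mitochondria, at 0.61 ± 0.16 (SE, n = 4 arrays; limma unadjusted p = 0.00982), and ABCF1, at 0.41. ABCF1 is of the ABC family by name but is not a membrane transporter. The sodium pump subunit ATP1B1 stood at 0.04, the calcium pump of the sarcoplasmic reticulum ATP2A2 at -0.22, UCP2 at -0.27, and TXNIP, which holds back glucose uptake, at 0.42.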

How the data were processed

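The deposited scanner files hold, per the file headers, spot intensity per channel and the log10 ratio (Cy5 over Cy3) of signals that Agilent Feature Extraction 10.7.3.1 had background-subtracted and dye-normalised. The ratio was exactly 0 for 18.1% to 28.9% of spots, mostly dim ones, and for at most 0.0949% of tested probes on an array. It was divided by log10 of 2 to give log2, and its sign was turned on arrays 2 and 4. The deposited series table holds log2 ratios. Its slopes on the turned scanner ratios were 1.00 on each array for probes bright in both channels, 100% of values lay within 0.01, and its column medians were -0.10, 0.13, -0.14 and 0.16. Scale, direction and the lack of further centring were thus settled for bright probes, while how dim probes were treated stays unknown.

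Outlier spots were left out and spots of a probe averaged. Of 43603 probes, 22129 (50.8%) were tested, while 159 bright ones lacked a value. Gene names came from a RefSeq gene table (Sscrofa11.1, names only), by accession without version: 6700 of 7125 probes received 1 of 3029 symbols. Each gene was represented by its brightest tested probe on average. Ratios were fitted with limma 3.58.1 under R 4.3.3, with a treatment and a dye coefficient per probe, two-sided, with Benjamini-Hochberg adjustment over all tested probes. Values after ± are moderated standard errors. Single array values are not corrected for the dye coefficient. In 5 simulations of 22129 probes for this comparison, 0% of log2 changes of 0.5, 4.8% of changes of 1, 68.4% of 1.5 and 86.8% of 2 were recovered, and 4.53% of calls were false.

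Array values and tests are given for the 6 genes per direction with the smallest unadjusted p, the gene with the smallest p of each class, and those of 12 fixed genes that were tested (SLC2A4, SLC16A1 and SLC27A1). Members, classes and lists were chosen with earlier results of these data known. Per the file headers, array 4 had a slide and scan of its own (slide 2, scan 2), and the rest were together on slide 1, scan 1. The number of arrays limits the precision. None of the 4 erythrocyte markers listed was on the array by name. Some genes counted here are not reported by name. The alternatives tried are in the closing section.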

Additional observations from a re-analysis of the deposited data

Results flagged for a closer look

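Among 64 genes and class medians with 4 array values each, 1 had an array standing far from the others; about 3.2 are due by chance. SLC3A1, the heavy chain of the cystine carrier, read -0.45 on array 2 and between 0.20 and 0.26 on the other arrays. Its second tested probe stood at -0.18 in the fit, against 0.06 for this one.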

How the results depend on the processing

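No solute carrier gene passed under any of the 13 alternatives run. Of the 18 genes named by rule, none changed sign under the 9 alternatives that keep all arrays or block the slide, 14 of them being testable when every spot had to be bright. For most alternatives this was fixed in advance. Dropping the dye term, the brightness filters, the variance trend and the series table leave the fitted change of a probe as it was. Median centring moved SLC5A1 only from -0.411 to -0.407. Normexp and loess, the slide block and averaging of several probes could turn a sign. With normexp and loess, 10 of all 54 tested genes changed sign, and the count of genes at an unadjusted p under 0.05 became 1 higher. The count of lower genes at that level became 0 with median centring, without the dye term, with bright probes alone, with a variance trend and with all probes of a gene averaged. Without the filter on dim probes it was 4, with 3 higher, over 79 genes, and over all probes 1644 were higher and 1518 lower, against 838 and 425. Slide as a block is the fit without array 4: it gave 429 and 265, and a metal carrier median of 0.019. Leaving out each array gave 429 to 1303 higher and 265 to 1090 lower probes at that level. It gave 0 to 12 adjusted calls over all probes, all higher and all without array 3, with no solute carrier among them. Solute carriers at that level numbered 0 to 1 higher and 0 to 3 lower, and the metal median ran from -0.072 to 0.019, that of amino acid carriers from -0.13 to 0.11, glucose carriers from -0.22 to 0.034 and fatty acid, sterol and choline carriers from -0.10 to 0.081. Vitamin carriers were lowest of the classes as reported, but with normexp and loess (-0.071) amino acid carriers (-0.096) were lower, with bright probes alone (-0.11) amino acid carriers again (-0.17), and without array 2 (-0.19) inorganic ion carriers (-0.23). With 3 arrays, the sole array of a dye orientation weighs most. A sign change in at least 1 omission occurred for 31 of 54 genes, among the named ones SLC27A1 (-0.13 to 0.15), SLC2A4 (-0.43 to 0.38) and SLC30A4 (-0.023 to 0.34). The cause of these shifts was not tested. Each ratio already pairs the treated and the control RNA of 1 array. A pairing by gilt could not be modelled, because the gilt of each RNA is not labelled. Signal over background limits dim carriers such as SLC5A1 and SLC25A24, whose changes were smaller with normexp and loess. The offset of 50 units used there draws ratios of dim probes toward 0 by construction. Smaller values of dim carriers under that setting cannot be told apart from this shrinkage. The brighter SLC25A3 and SLC7A7 stood at -0.21 and 0.26 with it, against -0.23 and 0.25.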

Other observations

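For 16 of the 54 tested genes (29.6%) the Cy5 signal was the higher on all 4 arrays, whichever RNA it held, against 9.51% of the 2134 named genes. Among the 19 other transport genes tested it was 5 (26.3%). With normexp and loess the shares were 25.9%, 8.76% and 15.8%. The differences between these shares were not tested. A dye offset equal on all arrays would cancel from the treatment coefficient, since each dye held treated RNA on 2 arrays. An unequal offset would not cancel. SLC41A1, which is not among these 16 genes, read -3.11 and 2.47 on arrays 1 and 2 but -0.11 and -0.06 on arrays 3 and 4. Whether the offsets were equal between arrays was not tested. A split by dye also fixes the sign of ratios read from single arrays.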
